A study of Mus musculus with 2 samples.

Results

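The 45 genes described here form a panel of cell cycle genes, followed across the leukocytes of mouse skin. A gene entered the panel by its symbol and had to hold 20 or more unique molecular identifiers (UMIs, each 1 captured RNA molecule) in the whole count matrix. All 45 listed genes passed, out of 32285 genes measured, with whole-matrix totals from 163 UMIs for Ccnb1 and for Kif20a to 51526 UMIs for Ccnd3. By role, 11 act in DNA replication and nucleotide synthesis, 7 are mitotic cyclins, Cdk1 or parts of their destruction, 7 are mitotic kinases or checkpoint proteins, 10 act at the kinetochore or spindle and 3 belong to chromosomes and chromatin. These 38 are called proliferation genes here. The remaining genes are 5 G1 cyclins and 2 inhibitors of cyclin-dependent kinases (CDKs).

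The study compared CD45+ cells, CD45 being the surface protein shared by leukocytes, sorted from digested full-thickness skin in 2 conditions. Control skin was taken at day 0, and the other skin at day 2 after challenge with DPCP (diphenylcyclopropenone, a contact sensitizer). The cells of both conditions were tagged, pooled and run together on a droplet platform that reads the 3′ end of transcripts, with 1 tagged sample per condition. Strain, genotype, age and the number of mice behind each tag are not given in the sources used here, so cells are not replicates of a condition and no test between conditions was made. Intervals are given at 95%, exact Poisson for levels and exact binomial for shares and ratios, and cover nothing but counting error. UMIs of cell cycle genes come in bursts from few cells, so neither the sampling of cells nor the spread between animals is within these intervals.

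A dividing cell copies its DNA in S phase and separates the copies in mitosis. D-type and E-type cyclins, with their kinases, release E2F transcription factors at the end of G1, and the genes for the replicative helicase (the Mcm proteins), Pcna, ribonucleotide reductase and thymidylate synthase are switched on for S phase. Cyclins A and B with Cdk1 drive mitosis, Aurora and Polo-like kinases and the Bub checkpoint control chromosome attachment, and Cdc20 and Ube2c direct cyclin B to destruction. Among skin leukocytes, resident T cells and resident phagocytes are known to divide in place, whereas neutrophils leave the bone marrow after their last division.

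Promoters of late cell cycle genes are known for pairing a cell cycle homology region (CHR, letters TTTGAA) with CCAAT letters, and promoters of S phase genes for E2F sites. RefSeq windows on GRCm38.p6 were available for 36 of the 45 genes, and the 250 bases before each start were searched on both strands. The CHR letters were present in 10 of the 36 genes (27.8%) and in 18.3% of all 27025 genes with a window. CCAAT was present in 30 of 36 (83.3%), against 37.5% of all genes. Both together were found in 10 of 36 (27.8%), against 6.45% of all genes, and these 10 were Mki67, Top2a, Ccnb2, Cdk1, Ube2c, Mcm2, Cdc20, Kif11, Prc1 and Hmgb2. The E2F letters TTTCCCGC, TTTGGCGC, TTTCGCGC or TTTGCCGC were present in Cdk1, Mcm5, Mcm6 and Mcm7 (4 of 36, 11.1%) and in 2.16% of all genes. A match is a description of the letters and not a measured site. The 3 windows below show the arrangement in 2 mitotic genes and 1 replication gene whose levels are given later, 5′ to 3′ along the gene, with the matched letters in capitals. The Ccnb2 window is chr9:70421555-70421804 on the minus strand, that of Cdc20 is chr4:118437344-118437593 on the minus strand, and that of Mcm5 is chr8:75109259-75109508 on the plus strand. In Mcm5, 2 E2F matches on opposite strands overlap.
Ccnb2: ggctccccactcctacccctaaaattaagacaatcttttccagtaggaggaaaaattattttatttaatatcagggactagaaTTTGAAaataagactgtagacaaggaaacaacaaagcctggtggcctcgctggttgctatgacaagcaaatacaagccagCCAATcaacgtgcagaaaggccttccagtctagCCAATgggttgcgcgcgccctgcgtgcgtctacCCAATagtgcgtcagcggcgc
Cdc20: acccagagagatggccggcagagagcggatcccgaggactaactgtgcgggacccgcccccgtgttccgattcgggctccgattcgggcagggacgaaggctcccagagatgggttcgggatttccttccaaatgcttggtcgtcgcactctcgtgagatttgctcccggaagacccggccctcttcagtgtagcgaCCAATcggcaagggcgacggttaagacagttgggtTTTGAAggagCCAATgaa
Mcm5: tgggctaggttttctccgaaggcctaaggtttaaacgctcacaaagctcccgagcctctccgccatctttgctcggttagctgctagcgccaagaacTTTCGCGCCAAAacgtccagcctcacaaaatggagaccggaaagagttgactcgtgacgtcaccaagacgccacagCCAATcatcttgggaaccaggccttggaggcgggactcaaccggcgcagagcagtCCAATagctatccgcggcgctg

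In the matrix, 12558 of 14146 barcodes passed a filter of 200 detected genes and 10% mitochondrial UMIs, of which 4970 came from control and 7588 from DPCP skin. The kept control cells held 51852466 UMIs (median 8803.00 per cell) and the kept DPCP cells 53121083 UMIs (median 4728.5). This filter removed 20.9% of the control barcodes but 3.53% of the DPCP ones, and 0 barcodes occurred in both conditions. Of the UMIs of both study tags, 97.8% in control and 86.1% in DPCP barcodes came from the cell's own tag. Cells were placed in classes by a gate on marker genes, and a gate's name stands for its markers. Every gate with 50 or more cells had more of its own markers than of others among its 10 leading genes. The ILC2 gate had 1 such marker, and that of epidermal γδ T cells had 3 of its own and 1 of another list. The same markers had chosen the cells, so these counts do not test the names of the gates. The neutrophil gate took 167 control and 4702 DPCP cells, so levels over all kept cells follow this difference, and fewer cells of a type cannot be told apart there from less RNA per cell. Each class is therefore also given alone. S100a8 and S100a9, abundant neutrophil transcripts, exceeded 20 UMIs in 0.916% of control and 24.4% of DPCP cells outside the neutrophil gate, and their part in the results was not tested except where a value without those cells is given.

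Cells that held 3 or more summed UMIs of Mki67, the proliferation antigen gene, and Top2a, the topoisomerase that untangles replicated chromosomes, are called positive. There were 107 positive cells among 4970 in control skin (2.15%, 1.77 to 2.596) and 57 among 7588 in DPCP skin (0.751%, 0.569 to 0.972). Outside the neutrophil gate the shares were 2.23% (107 of 4803, 1.83 to 2.69) and 1.73% (50 of 2886, 1.29 to 2.28). Outside that gate the intervals of the conditions overlap. In the neutrophil gate 7 of 4702 DPCP cells were positive (0.149%, 0.0599 to 0.306) and 0 of 167 control cells, which allows a share of up to 1.796% by a floor of 3 cells and 2.18% by the exact interval. The DPCP share is given for comparison, at a median of 3796.00 UMIs per cell beside 9615.00 UMIs in DPCP cells outside the gate. It is not a pure background level, because 2 of the 7 cells held 44 and 80 UMIs of Mki67 and Top2a. Whether these were doublets was not tested. Near the threshold, 59 control and 58 DPCP cells held 2 UMIs, and 23 and 9 held 3. After thinning every cell to 1000 UMIs, which left out 66 control and 77 DPCP cells, the shares outside the neutrophil gate were 0.359% and 0.214%. At 5000 UMIs, with 1107 and 693 cells left out, they were 1.43% and 1.23%. Control was the higher condition at each of these depths, but the intervals overlapped and no order is read. They were 0.209 to 0.574 and 0.0784 to 0.464 at 1000 UMIs, and 1.08 to 1.87 and 0.813 to 1.79 at 5000. The make-up also differed: 2488 of the 4803 control cells but 371 of the 2886 DPCP cells were in the gate of Lyz1 and Ear2 phagocytes.

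**Figure D1:**
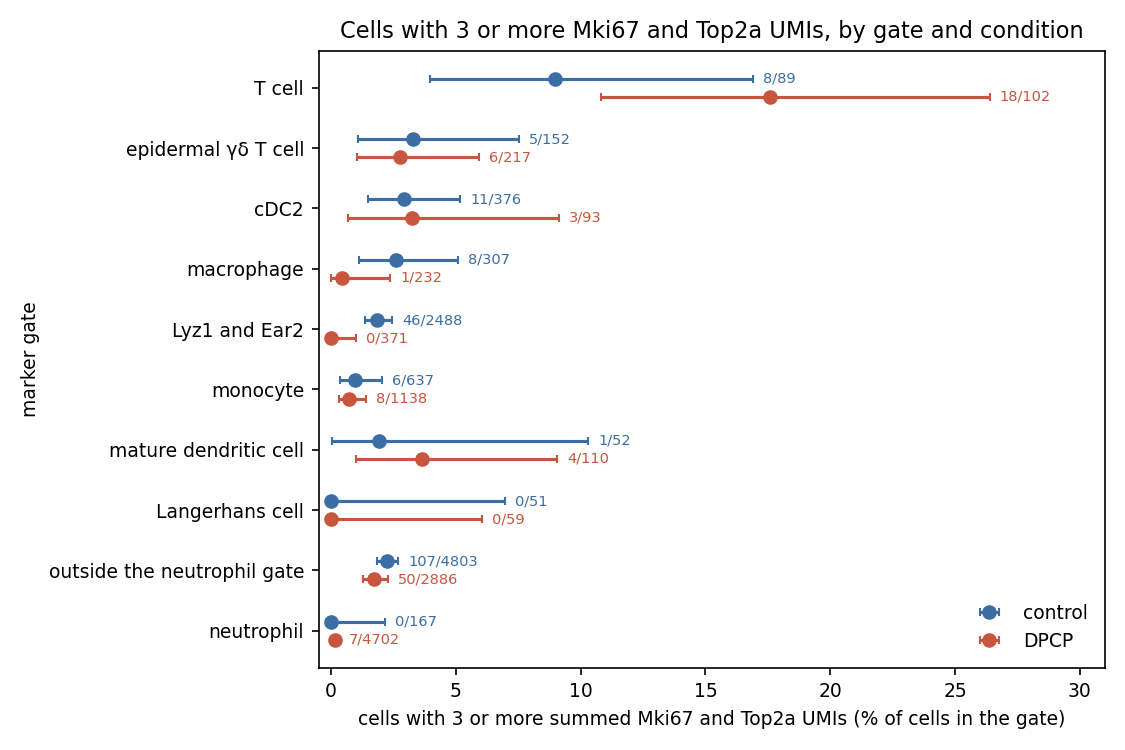
Share of cells with 3 or more summed Mki67 and Top2a UMIs in each marker gate (x axis, percent of cells), for control (blue) and DPCP (red); bars are exact binomial 95% intervals and the fractions give cells counted. The T cell gate has the highest shares of the gates drawn in both conditions, 8.99% and 17.6%, and the Lyz1 and Ear2 gate goes from 46 of 2488 cells to 0 of 371.

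The T cell gate had the highest share of positive cells among the gates with 50 or more cells per condition. It held 8 of 89 control cells (8.99%, 3.96 to 16.9) and 18 of 102 DPCP cells (17.6%, 10.8 to 26.4). These 18 made up 31.6% of the 57 positive DPCP cells, and the 8 made up 7.48% of the 107 positive control cells. Cells of the T cell gate with 3 or more of Foxp3, Ctla4, Il2ra, Ikzf2 and Tnfrsf4, genes of regulatory T cells, were positive in 3 of 21 control and 12 of 37 DPCP cells (32.4%, 18.01 to 49.8). The rest of the gate was positive in 5 of 68 and 6 of 65 cells. Depth moved with this comparison: median UMIs per T cell were 7104.00 in control and 8940.00 in DPCP skin. Thinned to 5000 UMIs the shares were 10.8% and 13.8%, and at 2000 UMIs they were both 5.88%. At 1000 UMIs they were 4.49% and 2.94%, from 4 control and 3 DPCP cells. The regulatory part stood at 12.5%, 4.76% and 4.76% in control cells at 5000, 2000 and 1000 UMIs. In DPCP cells it stood at 21.9%, 10.8% and 2.703%, so its order also turned with depth, with 1 positive cell in each condition at 1000 UMIs. Over 14 settings, the share of the whole gate was higher in DPCP in 12, higher in control in 1 and equal in 1. The levels of Mki67 and Top2a themselves, given below, were not higher in DPCP T cells. Single control T cells with 100 and 68 of these UMIs weigh on those levels. No order of the 2 conditions is read from the share of the whole gate or of its regulatory part.

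**Figure D2:**
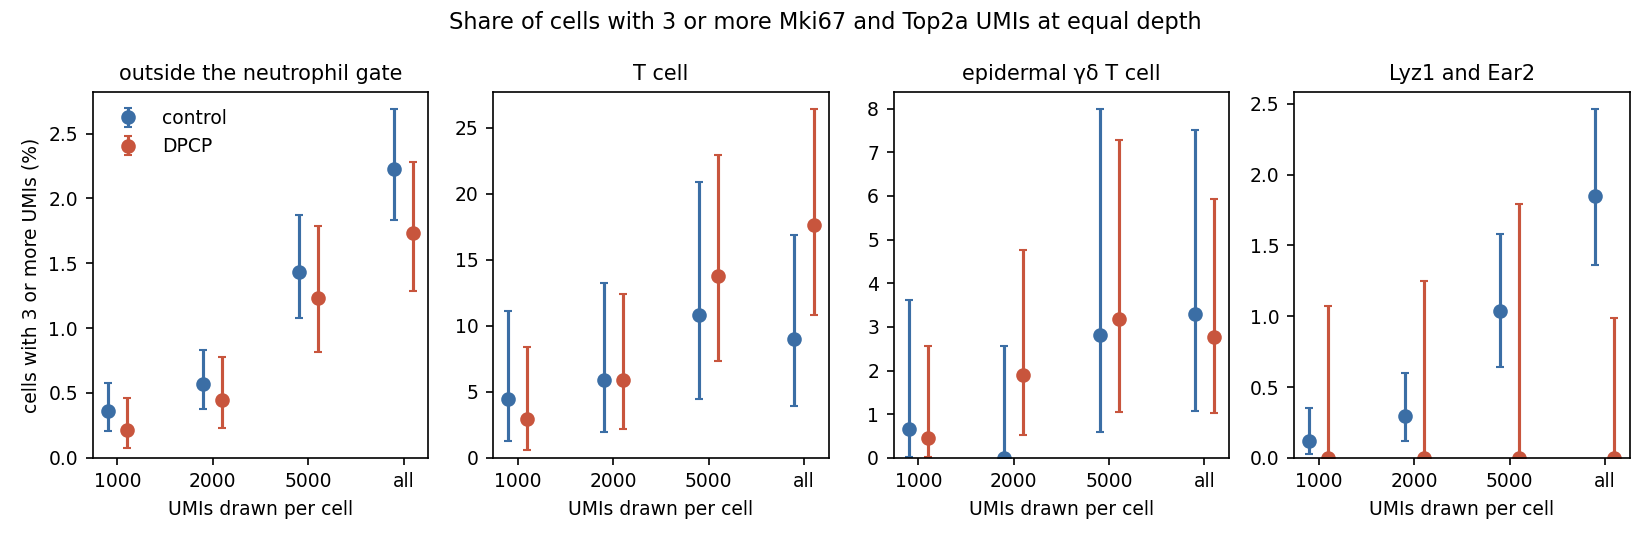
Share of cells with 3 or more Mki67 and Top2a UMIs (y axis, percent) after drawing 1000, 2000 or 5000 UMIs from each cell and at full depth, in 4 cell sets, for control (blue) and DPCP (red) with exact binomial 95% intervals. In the T cell panel the conditions stand at 4.49% and 2.94% at 1000 UMIs and at 8.99% and 17.6% at full depth.

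Positive cells in the Lyz1 and Ear2 gate, phagocytes named by these genes for a lysozyme and an eosinophil-type ribonuclease, were 46 of 2488 in control skin (1.85%, 1.36 to 2.46). They were the largest group, 42.99% of all positive control cells. In DPCP skin 0 of 371 cells were positive, which allows a share of up to 0.809% by a floor of 3 cells and 0.989% by the exact interval. Median depth moved in the same direction, 10700.0 UMIs in control and 5846.00 in DPCP cells. Thinned to 5000 UMIs, 21 of 2023 control cells (1.04%, 0.644 to 1.58) and 0 of 204 DPCP cells (upper limit 1.79%) were positive, and these intervals overlap. The gate's make-up also differed: clusters 6 and 7 held 50.3% and 34.4% of its control cells, whereas clusters 6 and 10 held 25.6% and 19.7% of its DPCP cells, cluster 10 being a cluster with neutrophil markers. Among macrophages 8 of 307 control cells (2.61%) and 1 of 232 DPCP cells (0.431%) were positive. Among monocytes 6 of 637 (0.942%) and 8 of 1138 (0.703%) were positive. In the gate of conventional type 2 dendritic cells (cDC2) the counts were 11 of 376 (2.93%) and 3 of 93 (3.23%), and among epidermal γδ T cells 5 of 152 (3.29%) and 6 of 217 (2.76%). No positive cell was found among 51 control and 59 DPCP Langerhans cells. In these last 5 gates the 2 intervals overlapped.

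The positive cells were few but held most of the RNA of several mitotic genes. The 164 positive cells were 1.31% of kept cells and held 3.24% of all UMIs (median 19756 UMIs per cell, against 6073.5 in the other 12394 cells). Levels were compared as UMIs per 1000000 UMIs of the summed cells (CPM), which sets total depth equal, and Mki67 and Top2a, which chose the cells, are left aside. Cenpf, a kinetochore protein of late cycle, stood at 158 CPM (145 to 172) in positive cells and at 0.916 CPM in the others, with 85.3% of its UMIs in positive cells. Ccna2, cyclin A2, was 169-fold higher (126 to 231) with 85.03% of its UMIs there. Kif11, the motor that pushes spindle poles apart, was 164-fold higher (131 to 207). Rrm2, the S phase subunit of ribonucleotide reductase, was 155-fold higher (120.3 to 203). Nusap1, Bub1 and Ccnb1, acting on spindle microtubules, in the checkpoint and as cyclin B1, were 141-fold, 133-fold and 131-fold higher. In each of these 7 genes 81.5% or more of the UMIs came from the positive cells, 1.31% of all.

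Other mitotic genes were less exclusive. Cdk1, the mitotic kinase, was 69.7-fold higher (55.7 to 87.6), Plk1, the Polo-like kinase, 68.4-fold, and Cdc20, the activator of the anaphase-promoting complex, 62.7-fold. Ccnb2, cyclin B2, was 31.1-fold higher (26.3 to 36.6), and 51.02% of its UMIs lay in positive cells. Aurka and Aurkb, the Aurora kinases, were 17.5-fold and 11.4-fold higher. The helicase genes, unlike Rrm2, had most of their UMIs in the other cells: Mcm4 was 7.49-fold higher and Mcm5, the widest gap among the 6 helicase genes, 16.04-fold (14.3 to 17.97), with 34.98% of its UMIs in positive cells. Pcna, the sliding clamp of replication and of DNA repair, was 4.71-fold higher (4.41 to 5.02) and held 68.2 CPM in the other cells. Hmgb2, a chromatin protein, was 5.302-fold higher, Cenpa, the centromeric histone, 6.45-fold, and Kif23, a motor of the midbody, 4.21-fold. These 4 genes had the 4 smallest ratios among the 36 proliferation genes other than Mki67 and Top2a. The 8 genes with CHR and CCAAT letters, Mki67 and Top2a aside, ranged from 5.302-fold (Hmgb2) to 164-fold (Kif11) with a median of 52.7, and the other 22 proliferation genes with a window from 4.21-fold (Kif23) to 173-fold (Cenpf) with a median of 21.6, a description over overlapping ranges.

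Among the G1 genes the E-type and D-type cyclins differed. Ccne2 and Ccne1, the E-type cyclins that start S phase, were 49.4-fold (37.9 to 64.6) and 10.01-fold (7.87 to 12.6) higher in positive cells. Ccnd1 was 2.04-fold and Ccnd2 1.64-fold higher. Ccnd3 was lower, 248 CPM in positive against 488 CPM in other cells, a ratio of 0.509 (0.475 to 0.545). The CDK inhibitor genes Cdkn1a (p21) and Cdkn1b (p27) had ratios of 0.719 and 0.804. Among the 107 positive control cells 95 held 3 or more UMIs of the replication genes and 86 held 3 or more of the mitotic cyclins and kinases, and 77 held both. Among the 57 positive DPCP cells these counts were 42, 35 and 32. They were taken at full depth, and no share of the other cells was computed beside them. Pcna, a replication gene, was at 68.2 CPM in the other cells, and positive cells were deeper (median 19756 UMIs against 6073.5). No phase and no order of the conditions is read from these counts. Outside the panel, the 10 genes with the highest ratio among those with at least 50 UMIs in positive cells were Hist1h3b, Hist1h2af, Kif14, Esco2, Pbk, Nek2, Pclaf, E2f7, Pimreg and Lrr1, from 209-fold to 408-fold. They include 2 replication-dependent histone genes and Pclaf, a Pcna-binding protein, at 292 CPM against 1.24 CPM.

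**Figure D3:**
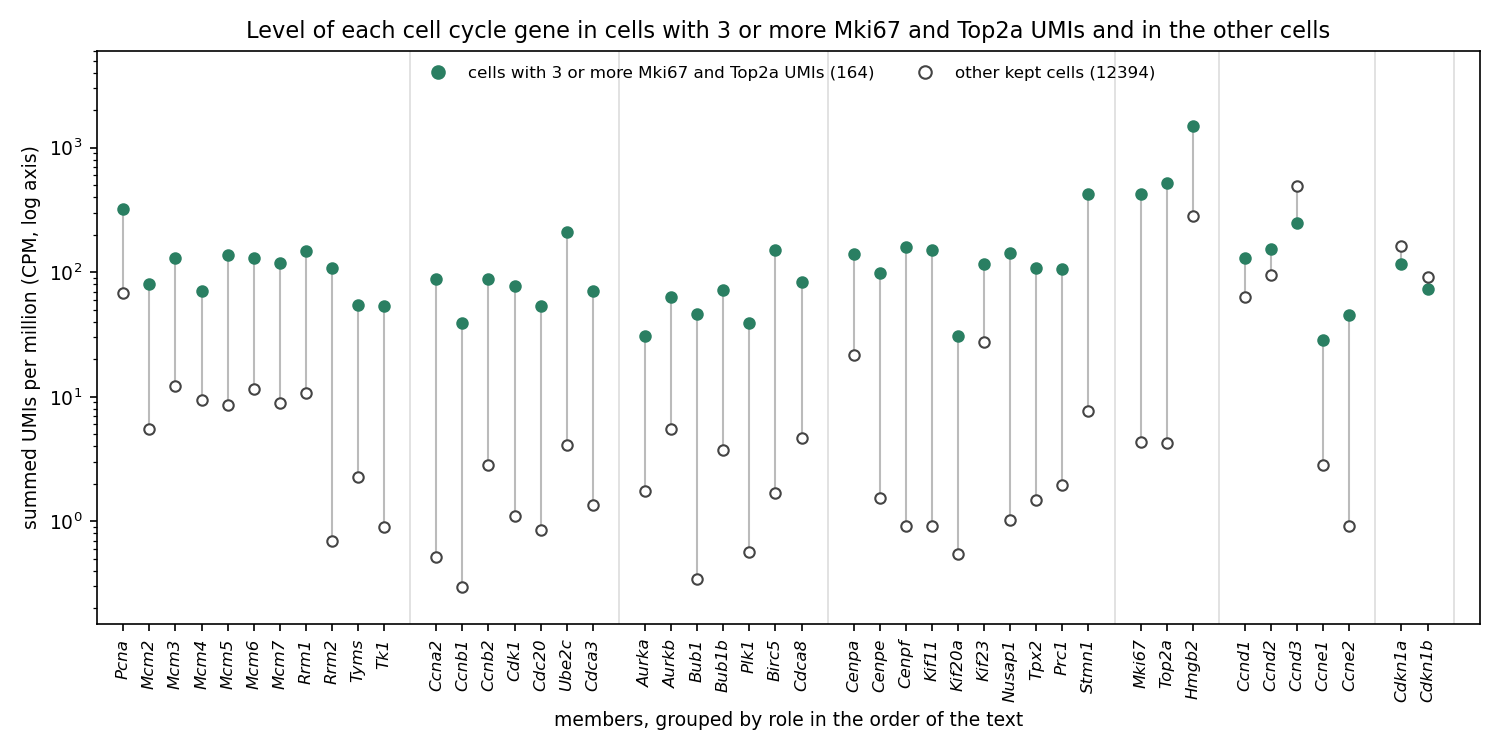
Level of each of the 45 genes (y axis, CPM on a log axis) in the 164 cells with 3 or more Mki67 and Top2a UMIs (filled) and in the other 12394 kept cells (open), ordered by role. The gap is widest for genes such as Ccna2 and Cenpf, narrow for Pcna, Hmgb2 and Kif23, and reversed for Ccnd3, Cdkn1a and Cdkn1b.

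Conditions were then compared gene by gene. A gene was counted as higher or lower when its DPCP to control ratio was at least 2 or at most 0.5. The interval also had to exclude 1, and only genes with 20 or more summed UMIs were compared. The same rule over all genes gives the background. No such background was computed where cells were left out or a setting was changed, except for T cell classes taken from Leiden clusters. Over all kept cells 4 of the 45 genes were higher (Kif23, Hmgb2, Ccnd3 and Cdkn1b), where 15.9% of 16194 tested genes were. There 16 of 45 were lower, against 10.4% of all genes, and the median log2 ratio of the panel was -0.88 against -0.14 over all tested genes. Outside the neutrophil gate 2 of 45 were higher (Hmgb2 and Ccnd3; 11.9% of 15499 genes) and 4 of 45 were lower (Cdk1, Aurkb, Ccnd1 and Ccne1; 5.17%), with a median of -0.43 against 0.07. Cdk1 had 5.23 CPM (4.62 to 5.895) in the control cells of this set and 2.603 CPM (2.07 to 3.24) in the DPCP cells, a ratio of 0.498 (0.383 to 0.6402). Aurkb stood at 11.3 and 5.56 CPM, a ratio of 0.492 (0.413 to 0.584). Control cells held 159 CPM of Hmgb2 (155 to 162) and DPCP cells 319.6 CPM (313 to 326), 2.01-fold more. Neither Hmgb2 nor Ccnd3 passed the limit once cells rich in S100a8 and S100a9 were left out, and 0 genes were higher under TMM scaling. Mcm3 (0.591), Mcm5 (0.588) and Cdca8, a subunit of the Aurora B complex (0.512), lay between 1 and the 2-fold limit. The summed replication genes had a ratio of 0.818 (0.792 to 0.845), the mitotic kinases 0.686 (0.636 to 0.739), and the kinetochore and spindle genes 0.767 (0.733 to 0.802). The sum of all 38 proliferation genes went the other way, 1.09-fold (1.07 to 1.11), and without Hmgb2 and Pcna the ratio was 0.745 (0.727 to 0.764).

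In the T cell gate 2 of 11 replication genes and 1 of 5 G1 cyclins were higher, and none of the 7 mitotic cyclin genes or of the 5 mitotic kinase genes compared passed the limit. Of the 42 panel genes that could be compared there, 4 were higher (Mcm2, Mcm6, Ccne2 and Cdkn1a; 4.77% of 8957 genes) and 2 were lower (Nusap1 and Ccnd1; 3.82%). Mcm2, a helicase subunit, had 37.3 CPM (24.8 to 53.8) in control T cells against 85.6 CPM (69.5 to 104) in DPCP T cells, 2.299-fold (1.497 to 3.64). Mcm6 was at 51.9 and 118 CPM, 2.27-fold (1.58 to 3.34). Ccne2 was at 6.65 CPM (5 UMIs) and 29.7 CPM (34 UMIs), 4.47-fold (1.74 to 14.6). Of the other 9 replication genes, Mcm3 (1.905), Tyms (1.83), Mcm5 (1.78), Mcm4 (1.64), Rrm1 (1.55) and Pcna (1.39) had ratios above 1 that missed the limit. Rrm2 (1.15), Mcm7 (1.09) and Tk1 (0.845) lay closer to 1 with intervals that include it, and the 11 together summed to 581 CPM (528 to 639) in the control and to 911 CPM (856 to 968) in the DPCP T cells, 1.57-fold (1.399 to 1.76). The intervals of this sum do not overlap between the conditions, but they cover counting error alone, and its UMIs come from few cells of 1 sample each. This sum was not recomputed without the top cells. Mki67 was at 189 CPM (159 to 223) and 180.0 CPM (156 to 206), and Top2a at 233 CPM (199.6 to 270.0) and 171 CPM (148 to 197). The mitotic cyclin group had a ratio of 1.13 (0.915 to 1.39) and the mitotic kinase group 1.04 (0.824 to 1.33). Nusap1 was at 83.8 and 33.2 CPM (0.396, 0.258 to 0.602) and Prc1, which bundles the central spindle, at 59.9 and 34.1 CPM (0.569, 0.361 to 0.894). The summed kinetochore and spindle genes had a ratio of 0.886 (0.786 to 0.998), below 1 where that of the replication genes was above it.

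These T cell values rest on few cells, and with a minimum of 200 summed UMIs 0 genes were higher or lower. The make-up of the gate also differed: cluster 13, with T cell markers, held 86.5% of its control and 69.6% of its DPCP cells. Cluster 0, a cluster with markers of epidermal γδ T cells, held 13.5% and 25.5%. A single cell held 20.1% of the control UMIs of the 38 proliferation genes and another 10.1% of the DPCP UMIs, and leaving both out kept Mcm2, Mcm6, Ccne2 and Cdkn1a and added Cenpa and Bub1b as higher. Within the regulatory part of the gate Mcm5 was at 45.02 and 129 CPM (2.87-fold, 1.42 to 6.55) and Mcm2 at 55.03 and 111 CPM (2.02-fold, 1.05 to 4.28), in 21 control and 37 DPCP cells. With classes taken from Leiden clusters in place of the gate, 36 of the 45 genes were higher, where 6.205% of 10444 genes were, and 1 was lower (Ccnd1), where the share was also 6.205%. That cluster held 238 control and 144 DPCP cells, against 89 and 102 in the gate. Of the cluster's cells, 77 control and 71 DPCP cells were in the T cell gate, so the 2 sets overlap only in part. The neutrophil marker list summed to 812 CPM in control T cells and to 4515 CPM in DPCP T cells, with 1 of 8 markers at 0 in control, and S100a8 and S100a9 exceeded 20 UMIs in 12.7% of DPCP T cells, 1 of them positive. Without those cells 8 genes were higher, among them Mcm2, Mcm3, Mcm6, Tyms and Ccne2. The share over all genes was not computed for this setting.

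Epidermal γδ T cells, the resident T cells of mouse epidermis, shared the higher Cdkn1a and lower Ccnd1 with the T cell gate. Of 34 genes compared, 6 were higher (Mki67, Ccnb2, Rrm2, Kif11, Prc1 and Cdkn1a; 7.03% of 10111 genes) and 1 was lower (Ccnd1; 5.16%). Mki67 had 21 UMIs (16.6 CPM) in the control cells and 71 UMIs (40.4 CPM) in the DPCP cells, 2.43-fold (1.47 to 4.16). Rrm2 and Prc1 were each at 6 control and 26 DPCP UMIs, 3.11-fold (1.25 to 9.24). The helicase genes Mcm2 and Mcm3 were not among them: Mcm2 was at 21.4 and 15.4 CPM and Mcm3 at 28.5 and 17.6 CPM. One DPCP cell held 23.3% of the DPCP UMIs and 1 control cell 22.6% of the control UMIs of the 38 genes. Without these 2 cells Mki67, Rrm2 and Cdkn1a were higher, and without cells rich in S100a8 and S100a9 Cdkn1a was the 1 gene that passed among 21 tested. In DPCP skin 30.9% of the gated cells exceeded 20 UMIs of S100a8 and S100a9, and cluster 19, with 0 control cells, held 29.03% of the gate.

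In the phagocyte gates more panel genes were lower than higher in DPCP skin. In the Lyz1 and Ear2 gate 0 of 45 genes were higher (7.03% of 12951 genes) and 26 of 45 were lower (2.100%), among them 5 of 7 mitotic cyclin genes, 4 of 7 mitotic kinase genes and 8 of 10 kinetochore and spindle genes. Their median log2 ratio was -1.30 over the 42 genes detected in both conditions, and -1.30 with the 3 undetected genes set to a floor of 3 UMIs, against 0.01 over all genes. Tpx2, which activates Aurora A on the spindle, had 168 control UMIs (5.52 CPM) and 1 DPCP UMI (0.319 CPM), a ratio of 0.0577 (0.00145 to 0.326). Cenpf had 178 control and 0 DPCP UMIs, at least 6.12-fold lower, and Ccna2 108 and 0, at least 3.71-fold lower. Ube2c, the ubiquitin-conjugating enzyme of mitotic exit, was at 14.7 and 1.59 CPM (0.108, 0.03505 to 0.255), and Stmn1, a microtubule-destabilising protein, at 22.8 and 4.14 CPM (0.182, 0.0962 to 0.313). Among replication genes Rrm2 was at 4.37 and 0.956 CPM (0.219, 0.0445 to 0.653), whereas Mcm4 was at 11.6 and 10.8 CPM (0.937, 0.638 to 1.33). Hmgb2 was at 99.3 and 100.4 CPM. With the 46 positive control cells left out, 40 genes could be compared and 3 were lower (Ube2c, Stmn1 and Ccnd1). A share over all genes was not computed for this count. In this gate the neutrophil markers summed to 738 CPM in control cells and 4609 CPM in DPCP cells, with no marker at 0, and the list of Lyz1 and Ear2 markers to 27078 and 15223 CPM.

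Macrophages had 0 of 34 genes higher (6.45% of 10473 genes) and 18 of 34 lower (5.43%). Kif11 had 40 control UMIs (15.6 CPM) and 1 DPCP UMI (0.402 CPM), a ratio of 0.0257 (0.000635 to 0.152), and Top2a was at 46.9 and 5.22 CPM (0.111, 0.0576 to 0.198). Pcna did not follow, at 68.4 and 73.1 CPM (1.07, 0.863 to 1.32). One control macrophage held 24.6% of the control UMIs of the 38 genes, and without the top cell of each condition 12 genes were lower. With positive cells left out, 19 genes could be compared and 2 were lower, Ccnd1 and Ccnd2. Neither of these counts has a computed share over all genes beside it. Clusters 4 and 2 held 42.7% and 40.7% of control macrophages, and clusters 2 and 15 held 48.7% and 16.4% of the DPCP ones.

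Monocytes had 1 of 44 genes higher (Ccnd3; 6.53% of 12097 genes) and 22 of 44 lower (6.56%), with a median log2 ratio of -1.11 against -0.05. Cdk1 was at 4.45 CPM (25 UMIs) and 0.884 CPM (12 UMIs), a ratio of 0.198 (0.0909 to 0.4100). Top2a was at 25.8 and 6.41 CPM (0.248, 0.188 to 0.326) and Mcm2 at 10.2 and 2.87 CPM (0.283, 0.183 to 0.433). One control monocyte held 13.2% of the control UMIs of the 38 genes. Without the top cell of each condition 15 genes were lower and 3 higher (Ccnb2, Ube2c and Ccnd3), with no share over all genes computed. A few mitotic genes differed from this pattern: Ccnb2 was at 3.92 and 4.57 CPM, Cdca3, a partner in mitotic entry, at 3.38 and 3.68 CPM, and Ube2c at 10.7 and 14.2 CPM (1.33, 0.991 to 1.81). Among the monocytes below 3 Mki67 and Top2a UMIs, Ccnb2, Birc5, Ube2c, Cdca3 and Ccnd3 were higher in DPCP skin, and Mcm2, Mcm6, Ccnd1 and Ccnd2 lower. No share over all genes was computed for these calls. S100a8 and S100a9 exceeded 20 UMIs in 0.471% of all gated control and 22.7% of all gated DPCP monocytes. The part of those cells in these calls was not tested. In all gated monocytes, 3 or more summed UMIs of Ccna2, Ccnb1, Ccnb2, Cdk1, Birc5 and Ube2c were held by 5 of 637 control monocytes (0.785%, 0.255 to 1.82) and 24 of 1138 DPCP monocytes (2.11%, 1.36 to 3.12). These intervals overlap, as do those for Mki67 and Top2a, and median depth was 8007.00 UMIs in control and 11377 in DPCP monocytes, so no order is read from either share. Cluster 4 held 62.95% of control and cluster 8 held 60.5% of DPCP monocytes, so the gate spans different clusters in the 2 conditions.

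In cDC2, 1 of 40 genes was higher (Aurka; 4.08% of 10041 genes) and 9 of 40 were lower (4.82%). Kif11 had 69 control UMIs (18.8 CPM) and 1 DPCP UMI (0.7497 CPM), a ratio of 0.03997 (0.000998 to 0.2302), and Mcm3 was at 33.2 and 13.5 CPM (0.407, 0.233 to 0.6705). Aurka had 11 and 12 UMIs, 2.99 and 8.996 CPM (3.01-fold, 1.22 to 7.53). The DPCP side of this gate held 93 cells, of which 3 were positive. One cell held 15.9% of the control and another 18.5% of the DPCP UMIs of the 38 genes. Cluster 5 held 88.03% of control and 55.9% of DPCP cDC2, and cluster 3, a cluster with cDC1 markers, held 25.8% of the DPCP cells.

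**Figure D4:**
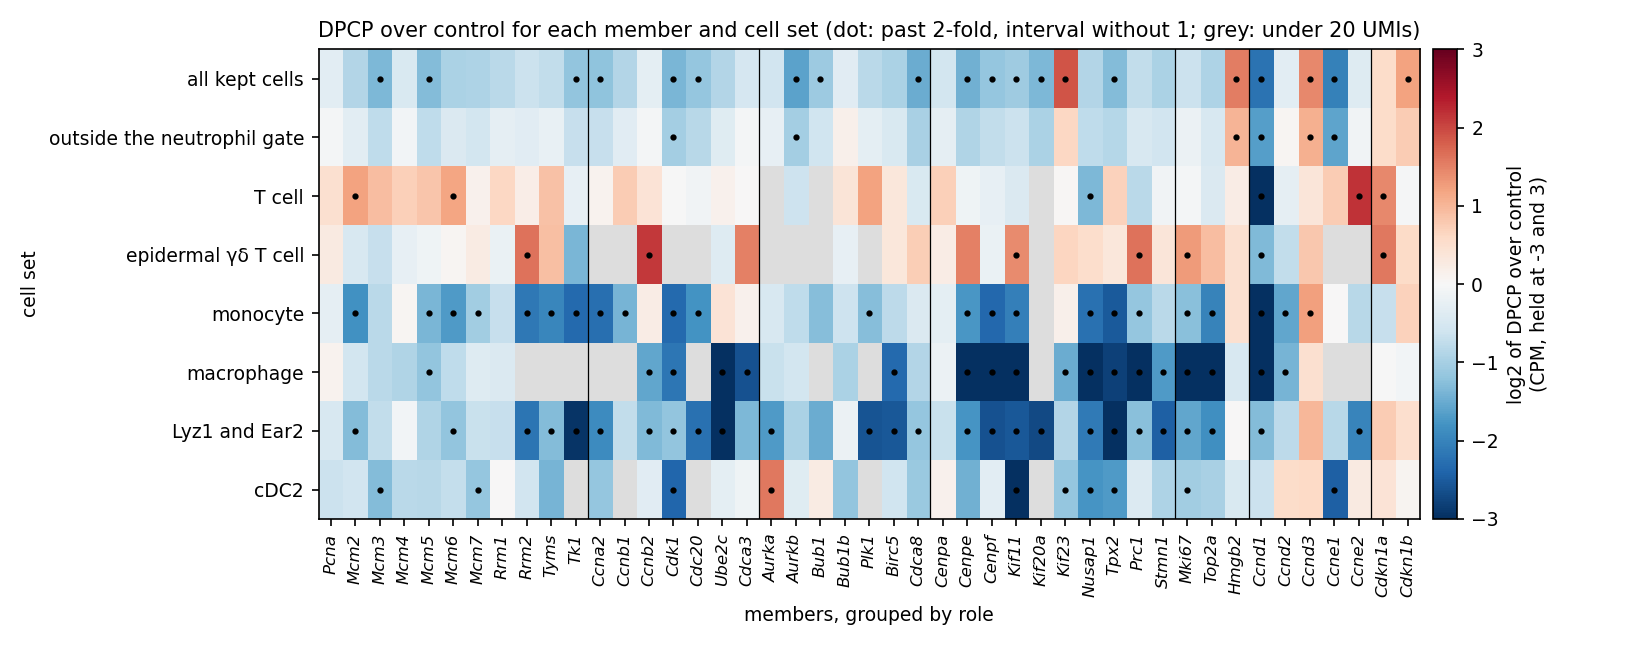
Log2 of the DPCP to control ratio (colour, held at -3 and 3) for each of the 45 genes (x axis, by role) in 8 cell sets (y axis); dots mark a ratio past 2-fold whose interval excludes 1, grey marks fewer than 20 summed UMIs, and a level of 0 is drawn at a floor of 3 UMIs. The phagocyte gates are blue for most mitotic genes, the T cell gate is red for most replication genes, and Ccnd1 is blue in every set drawn.

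Kif23 and Hmgb2 were at higher levels in the neutrophil gate than outside it in both conditions. In the 4702 DPCP cells of the neutrophil gate Kif23 was at 90.8 CPM (1998 UMIs) and in the 167 control cells at 199 CPM (86 UMIs), against 17.4 and 11.3 CPM outside the gate. Hmgb2 was at 693 and 739.8 CPM in the gate. The 11 replication genes summed to 77.2 CPM (1699 UMIs) in DPCP neutrophils and the 7 mitotic cyclin genes to 11.4 CPM (250 UMIs). Plk1 had 10 DPCP UMIs (0.454 CPM) and Bub1 also 10, with 0 in control. Cdk1 was at 1.18 CPM and Ccna2 at 0.772 CPM in DPCP neutrophils. The 3.71-fold higher Kif23 level over all kept cells (12.9 and 47.8 CPM) and the higher Hmgb2 level (164 and 474 CPM) stood beside the larger number of neutrophils in DPCP skin.

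Ccnd1, the gene for cyclin D1, was lower in every cell set of the ratio map, and past the limit in all of them but cDC2. Control monocytes held 157 CPM and DPCP monocytes 9.94 CPM (0.0632, 0.0523 to 0.0758), and macrophages 175 and 16.1 CPM (0.0917, 0.0646 to 0.127). In the Lyz1 and Ear2 gate it was at 62.2 and 25.2 CPM (0.405, 0.319 to 0.507), and in epidermal γδ T cells at 88.8 and 35.3 CPM (0.397, 0.286 to 0.547). T cells had 20 control and 3 DPCP UMIs of Ccnd1 (0.0985, 0.0187 to 0.332). In cDC2 it was at 335 and 214 CPM (0.6402, 0.561 to 0.729), and in mature dendritic cells it was at 43.01 and 53.04 CPM (1.23, 0.804 to 1.95). The calls in monocytes, macrophages, the Lyz1 and Ear2 gate and γδ T cells were also made when positive cells were left out.

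Ccnd2 and Ccnd3 followed other patterns. Ccnd2, cyclin D2, was at 992 and 592 CPM in control and DPCP γδ T cells (0.597, 0.5495 to 0.649), at 535 and 444 CPM in T cells and at 634 and 695 CPM in ILC2. In monocytes it was at 56.99 and 19.2 CPM (0.337, 0.285 to 0.398), and in mature dendritic cells at 175 and 346 CPM (1.98, 1.62 to 2.43). Ccnd3, cyclin D3, was at 863 and 932 CPM in neutrophils, whose intervals overlap. In monocytes it was at 258 and 610.2 CPM (2.36, 2.24 to 2.502), in γδ T cells at 575 and 1017 CPM (1.77, 1.62 to 1.93) and in the Lyz1 and Ear2 gate at 217 and 434 CPM (1.997, 1.88 to 2.12), just under the limit. Langerhans cells went the other way, 457 and 184 CPM (0.402, 0.331 to 0.488).

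The CDK inhibitors differed between classes as well. Cdkn1a was at 44.3 and 447 CPM in control and DPCP Langerhans cells (10.1-fold, 6.75 to 15.8), a gate with 51 and 59 cells. In epidermal γδ T cells it was at 62.6 and 188 CPM (2.998-fold, 2.34 to 3.88), in T cells at 33.3 and 90.02 CPM (2.71-fold, 1.73 to 4.37) and in neutrophils at 53.3 and 194 CPM (3.64-fold, 2.42 to 5.74). Monocytes were lower, 234 and 145 CPM (0.618, 0.576 to 0.664), and macrophages level, 199 and 198 CPM (0.995, 0.877 to 1.13). Cdkn1b was at 202 and 178 CPM in neutrophils and at 53.9 and 90.5 CPM outside that gate (1.68, 1.59 to 1.77). Positive cells held 94.6 CPM of Cdkn1a (82.4 to 108) when from control skin and 159 CPM (137 to 184) when from DPCP skin.

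**Figure D5:**
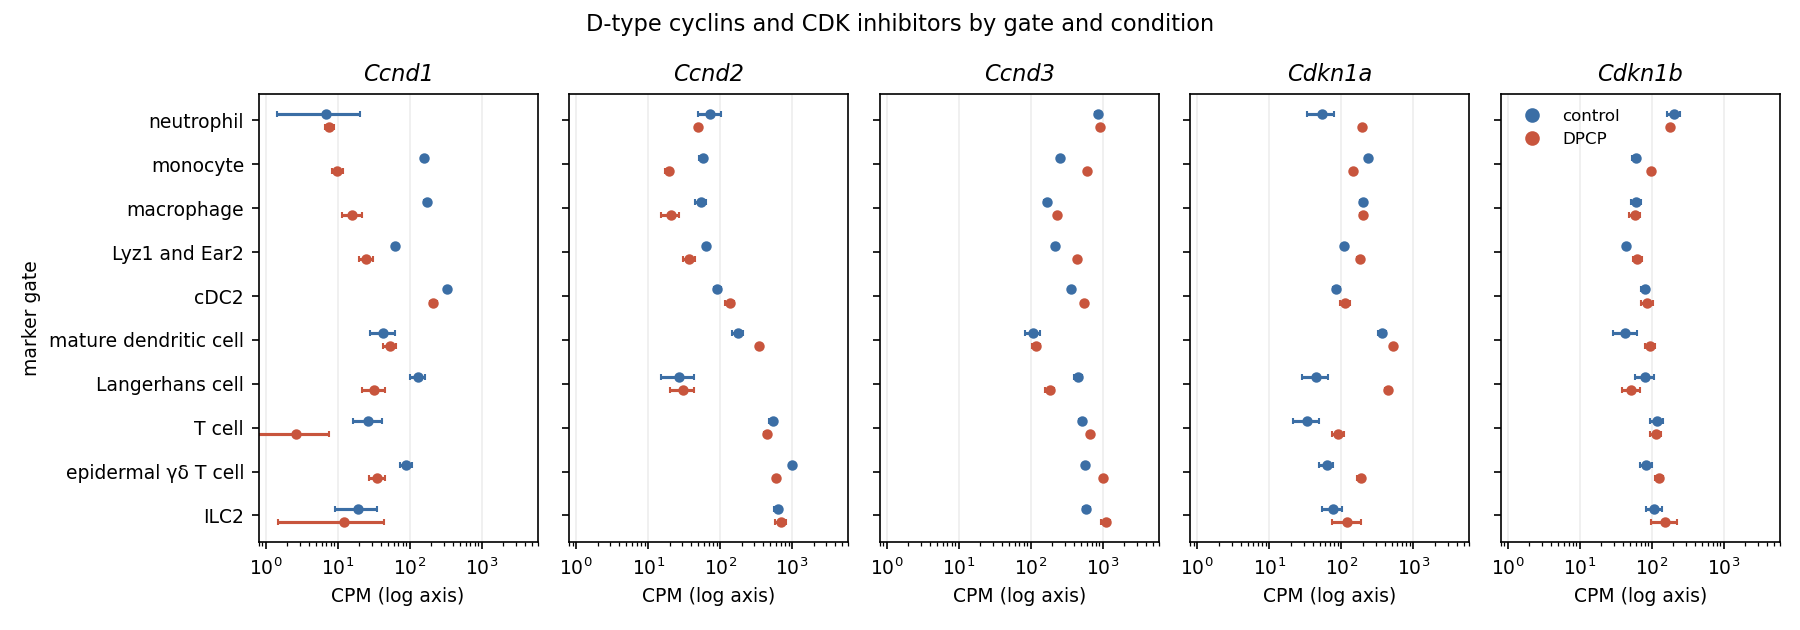
Level (x axis, CPM on a log axis) of the 3 D-type cyclin genes and of Cdkn1a and Cdkn1b in 10 marker gates for control (blue) and DPCP (red), with exact Poisson 95% intervals. Ccnd1 is at 9.94 CPM in DPCP monocytes and 157 CPM in control ones, and Cdkn1a is at 447 CPM in DPCP Langerhans cells against 44.3 CPM in control.

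Other genes of the pathway were read from 6 lists. Outside the neutrophil gate, where 11.9% of all genes were higher and 5.17% lower, 1 of 19 genes of the E2F family and replication control was higher (E2f2) and 0 were lower, and 0 of 18 genes of the replication fork and nucleotide supply passed in either direction. Of 37 mitotic regulators 1 was higher (Cks2) and 4 were lower (Ttk, Nek2, Spc25 and Sgo1), with a median log2 ratio of -0.48. Of 16 tested genes of DNA damage and p53 targets 5 were higher (Gdf15, Gadd45a, Gadd45b, Plk2 and Plk3) and 1 was lower (Phlda3). Of 18 genes of quiescence and cell cycle exit 3 were higher (Cdkn2d, Btg1 and Mxd1). Of 9 genes of G1 entry 1 was higher (Id3) and 1 lower (Myc), and both lists had counts near the share over all genes. In DPCP skin Mxd1 and Btg1 stood at 738 and 1438 CPM over all kept cells, against 201 and 827 CPM outside the neutrophil gate. Gadd45a and Plk3 stood at 143 and 112 CPM, against 38.8 and 37.99 CPM. E2f2 (33.6 and 36.9) and Id3 (6.61 and 9.48) went the other way. The part of neutrophil RNA in these calls was not tested. In T cells, where 4.77% of all genes were higher and 3.82% lower, the E2F and replication lists had 2 of 17 and 2 of 18 tested genes higher (E2f1 and Cdt1; Pola1 and Lig1) and none lower. Lig1, the DNA ligase of replication, was at 31.9 and 97.01 CPM (3.04-fold, 1.94 to 4.94). Pola1, the catalytic subunit of DNA polymerase alpha, was at 67.9 and 167 CPM (2.46-fold, 1.798 to 3.42). Of the tested mitotic regulators in T cells 2 of 30 were higher (Mybl2 and Cks2) and 2 lower (Ttk and Sgo1). The p53 list had 1 of 13 higher (Gadd45a) and the quiescence list 1 of 15 (Mxd1), with 0 lower in either. Of the G1 entry genes 2 of 8 were higher (Myc and Cdk6) and 1 lower (Id3). Myc had 3 control and 36 DPCP UMIs in T cells (7.88-fold, 2.49 to 40.01), whereas outside the neutrophil gate as a whole it was lower in DPCP skin.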

How the data were processed

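The authors deposited 1 matrix of UMI counts, made with Cell Ranger 7.0.0 per the file headers. The submitters' processing notes name Cell Ranger 6.1.1, Seurat 4.0.1 and mm10. The sources used here do not say whether depth was equalised between samples. Barcodes under 200 genes or over 10% mitochondrial UMIs were dropped. Scrublet marked 3 control and 0 DPCP cells, too few for a working caller, so no doublets were removed. Each marker was scaled to its 90th percentile among cells with a UMI of it. A cell joined the list of highest mean with 3 or more detected markers, unless the next list exceeded 80% of that mean. The lists of T cells and epidermal γδ T cells were exempt from this limit against each other. Where they ranked highest and next, the list after them was compared, so cells close to both lists stayed in the higher one. Counts were summed per gate and condition, divided by all UMIs and compared as ratios, with 20 summed UMIs as the minimum. The exact intervals were checked on simulated independent Poisson counts. Such counts lack the bursts from few cells, so coverage in these data was not tested. All 45 genes are accounted for. Other genes come from 6 pathway lists, or are the 10 with the highest ratio in positive cells. Members and lists were chosen with earlier results of these data known. Alternatives changed filters, tags, classes, scaling, minimum and depth. Tools were Python 3.11.15, numpy 2.4.6, scipy 1.17.1, scanpy 1.11.5, leidenalg 0.10.2 and, for TMM, edgeR 4.0.16.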

Additional observations from a re-analysis of the deposited data

How the results depend on the processing

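With 1 tagged sample per condition, no setting measures the spread between animals, and few cells carry most values. The alternatives that left out the top cell of each condition for the gene counts, kept only cells below 3 Mki67 and Top2a UMIs, dropped Hmgb2 and Pcna, or thinned to 5000 UMIs were chosen after seeing the data. Among the results over all cells, outside the neutrophil gate and in T cells, 130 values stayed close under an alternative, 61 moved and 4 reversed, where close means within 1.5 times for a count and within the 95% interval of the reported value for a share or a ratio. The cause was not tested. No paired analysis was possible because each condition is 1 sample.

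The T cell count of higher genes (4) was 36 with Leiden classes, 0 at a minimum of 200 UMIs and 8 without cells rich in S100a8 and S100a9. The T cell count of lower genes (2) was 1 with Leiden classes, at a minimum of 50 UMIs and among cells below 3 Mki67 and Top2a UMIs, 0 at 200 UMIs and 6 with the own tag at 80% or more. Over all kept cells the lower count (16) was 6 among cells below 3 Mki67 and Top2a UMIs and 26 with the own tag at 80%. Outside the neutrophil gate the higher count (2) was 0 under TMM scaling, mean CPM per cell, the own tag rule and without the S100a8 and S100a9 cells, and 1 with the stricter cell filter, without mitochondrial and ribosomal genes and without the top 5% of Scrublet scores. The lower count (4) was 7 under TMM, 2 with no cell filter and 10 with the own tag rule. For the alternative counts in this paragraph, the share over all genes was computed only for the T cell Leiden classes.

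The log2 ratio of the 38 summed proliferation genes in T cells (0.17) was 1.23 with Leiden classes, -0.03 as mean CPM per cell, 0.31 without the S100a8 and S100a9 cells and 0.33 without the top cells. Over all kept cells (0.31) it was -0.65 without Hmgb2 and Pcna, 0.40 under TMM, 0.53 as mean CPM, 0.18 with the own tag rule, 0.29 with the stricter filter, 0.23 without mitochondrial and ribosomal genes and 0.34 without the S100a8 and S100a9 cells. Outside the neutrophil gate (0.13) it was -0.42 without Hmgb2 and Pcna, 0.19 with Leiden classes, 0.01 under TMM, 0.18 as mean CPM, -0.01 with the own tag rule and 0.09 without the S100a8 and S100a9 cells. In monocytes it turned positive, 0.09 with Leiden classes, 0.20 as mean CPM and 0.08 without the top cells, and in γδ T cells negative, -0.30 without the S100a8 and S100a9 cells.

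At 1 or more, 2 or more and 5 or more UMIs, the share of cells over all kept cells was 9.76%, 3.34% and 1.51% in control and 5.75%, 1.52% and 0.514% in DPCP skin, and outside the neutrophil gate 10.1%, 3.46% and 1.56% and then 10.3%, 3.43% and 1.25%. Thinned to 1000, 2000 and 5000 UMIs, control stood at 0.349%, 0.558% and 1.43% over all kept cells and at 0.359%, 0.5698% and 1.43% outside the gate. DPCP stood at 0.0947% and 0.205% at 1000 and 2000 UMIs over all kept cells and at 0.214%, 0.448% and 1.23% outside the gate. The T cell share was 25.8% in control and 33.3% in DPCP skin at 1 or more UMIs, and in DPCP skin 28.6% with the own tag rule, 2.94% at 1000 UMIs and 5.88% at 2000 UMIs.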
